A study of Mus musculus with 311 samples.

Results

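The T cell rich livers are the 77 of 311 F2 mouse livers with the most RNA of Cd2 and Cd3g relative to a common pool, chosen by these measured values separately among Eif2s3y-high and Eif2s3y-low animals. Cd2 codes for an adhesion molecule of T and NK cells, and Cd3g for a subunit of the T cell receptor complex. The score was the mean of both genes' standardized log10 ratios, and Eif2s3y, a gene of the Y chromosome, split the arrays at a log10 ratio of -0.5 into 155 Eif2s3y-high and 156 Eif2s3y-low animals. The 38 livers of highest score among the former and the 39 among the latter make up the T cell rich group. They were compared with the 38 and 39 livers of lowest score, called T cell poor here, and 157 livers lay between. All of these animals were F2 progeny of C57BL/6J and C3H/HeJ parents, all on an ApoE null background, and all ate a Western high-fat diet from 8 to 24 weeks of age, so no group is free of the mutation or the diet. Without Apoe, remnant lipoproteins are cleared poorly from blood, so these are livers of hyperlipidaemic mice. Each animal gave 1 array of liver total RNA labelled with Cy3 against a pool of all samples labelled with Cy5. The design names both sexes, but the labels used here give no sex, genotype or phenotype per animal. The F2 number, from 2 to 359, was the only label that differed between animals.

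T cells recognise peptides held by MHC molecules through a receptor of variable chains that signals through CD3 subunits. CD8 T cells and NK cells of the liver kill target cells with granzymes and Fas ligand and secrete interferon gamma. Interferon gamma acts on genes of antigen presentation, of GTPases that defend against intracellular microbes, and of the chemokines CXCL9 and CXCL10, which attract T cells that carry CXCR3.

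By construction the score separated the groups, so its values and those of Cd2, Cd3g and Eif2s3y are given as a description only. Among Eif2s3y-high animals the score of T cell rich livers ran from 0.182 to 3.47 (median 0.687) and that of T cell poor livers from -2.84 to -0.959 (median -1.43). Among Eif2s3y-low animals the same ranges were 0.792 to 2.54 (median 1.27) and -1.25 to -0.222 (median -0.447). At the margins the last liver inside the rich group scored 0.182 and the first outside 0.152 in the Eif2s3y-high animals, and 0.792 and 0.769 in the Eif2s3y-low animals. The corresponding margins of the poor group were -0.959 inside and -0.956 outside, and -0.222 inside and -0.199 outside. The cut points thus ran through a continuous distribution, with no gap between the groups and the middle animals. Within the Eif2s3y-high animals Cd2 and Cd3g correlated with a Pearson r of 0.807 (n = 152), and within the Eif2s3y-low animals with 0.713 (n = 154), over ratios that share an array. On 5 arrays Cd3g was missing and the score was Cd2 alone. The Eif2s3y split fell in a gap, with the nearest values at -0.219 and -0.875.

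**Figure D1:**
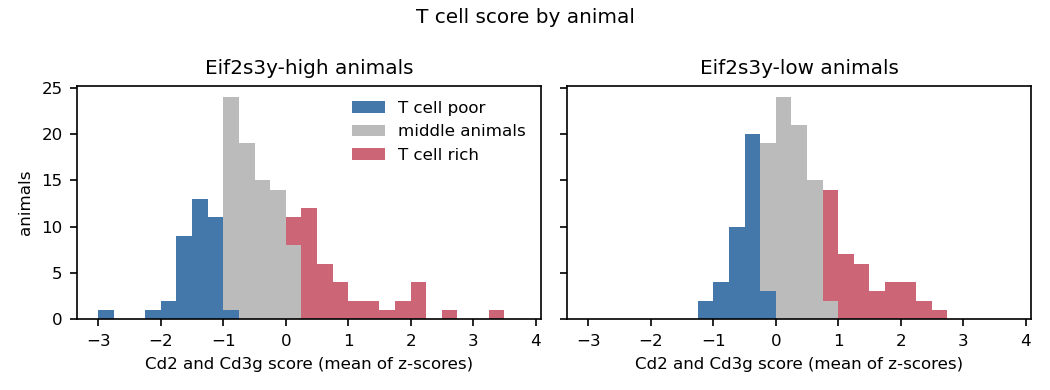
Histograms of the Cd2 and Cd3g score (x axis, mean of standardized log10 ratios) with the number of animals (y axis), for Eif2s3y-high animals on the left and Eif2s3y-low animals on the right. Blue, gray and red bars are the T cell poor, middle and T cell rich livers, and the distribution is continuous across both cut points.

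In these livers 11384 other genes were tested with limma in each Eif2s3y group, with Benjamini-Hochberg adjustment over all of them and a threshold of 0.05. An array without a value for a gene was left out of that gene's fit. The values are relative to a pool and come from bulk tissue, so fewer cells of a type and less RNA per cell cannot be told apart. Over arrays, 1 to 2889 of 23388 probe values were missing (median 78), array SDs lay between 0.0658 and 0.206, and the number of arrays limits the precision. In the T cell rich group 18 of 38 Eif2s3y-high and 20 of 39 Eif2s3y-low animals had F2 numbers up to the median of 186, against 19 of 38 and 17 of 39 in the T cell poor group. A macrophage score from Ctss and Lgmn moved with the T cell score. Its median was 0.382 in T cell rich and -1.11 in T cell poor Eif2s3y-high livers, and 0.756 and 0.131 in the Eif2s3y-low livers. The Ctss probe in this score differed by 0.175 and 0.132 between rich and poor livers, and a further Ctss probe by 0.0353 and 0.000689. Lgmn was not called in both Eif2s3y groups.

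A total of 401 genes (3.52% of those tested) were higher and 42 genes (0.369%) were lower in T cell rich livers of both Eif2s3y groups, by limma's adjusted p. No gene was called in opposite directions. Of the 401 higher genes 92 were in at least 1 of the 38 gene lists described below, and 309 were in none. Immune genes led the higher set: the chemokine gene Ccl5 rose 3.38-fold in Eif2s3y-high and 2.94-fold in Eif2s3y-low animals, and the T cell adaptor gene Sh2d1a 2.74-fold and 2.47-fold. The median fold of the 401 genes was 1.28 in Eif2s3y-high and 1.22 in Eif2s3y-low animals, while the 42 lower genes fell by a median factor of 1.10 and 1.09. At least a 1.25-fold difference in both groups was reached by 149 higher genes (1.31%) and 1 lower gene (0.00878%), and at least a 1.5-fold difference by 26 higher genes (0.228%). Only 7 genes (0.0615%) were at least 2-fold higher in both: Ccl5, Tgtp1, Ccl8, Sh2d1a, Trav9d-3, Gbp2b and Eomes. The Eif2s3y-high animals gave more calls alone, with 1294 genes higher (11.4%) and 1242 lower (10.9%), against 458 higher (4.02%) and 156 lower (1.37%) in the Eif2s3y-low animals. Of the higher calls, 87.6% of those of the Eif2s3y-low animals were also called in the Eif2s3y-high animals, and 31.0% the other way round. For lower calls these shares were 26.9% and 3.38%. The interaction test called 1 gene (0.00878%), Lep, with 1588 genes at an unadjusted p under 0.05. This count was not stable: it was 20 with each array centred, 54 with the score from Cd2 alone and 161 without the 10 arrays of largest spread, but 0 with the score from Cd3g alone and 0 with 51 and 52 or with 15 animals at either end.

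**Figure D2:**
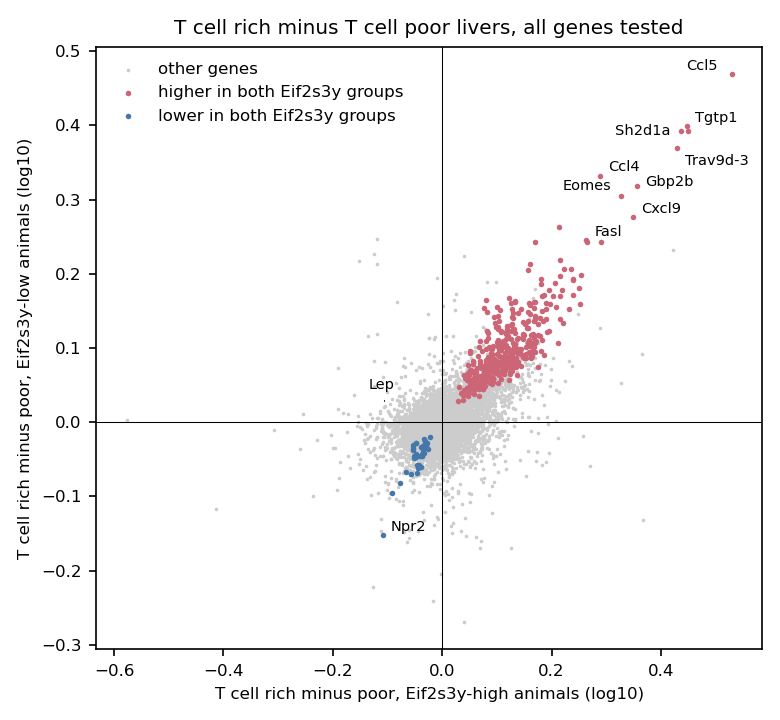
Difference in log10 ratio, T cell rich minus T cell poor livers, in Eif2s3y-high animals (x axis) and Eif2s3y-low animals (y axis) for the 11384 genes tested. Red points are the 401 genes higher and blue points the 42 genes lower in both groups by limma, and the largest differences lie at the upper right, led by Ccl5.

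Of all genes tested, 3.52% rose in both Eif2s3y groups. Of the genes of the T cell receptor and its coreceptors, 11 were tested beside Cd2 and Cd3g, and 4 rose in both Eif2s3y groups: Cd3d, Cd7, Cd8a and Cd96. A variable segment of the receptor's alpha chain, Trav9d-3, separated the groups further than any of these 4. Its log10 ratio ran from 0.0229 to 0.648 (median 0.175) in T cell rich and from -0.371 to -0.0730 (median -0.213) in T cell poor Eif2s3y-high livers. In Eif2s3y-low livers the rich group ran from 0.0243 to 0.596 (median 0.187) and the poor group from -0.268 to 0.0399 (median -0.143). The groups did not overlap among the Eif2s3y-high animals, and 38 of 39 rich livers lay above every poor liver among the Eif2s3y-low animals. The differences were 0.429 ± 0.0272 (SE; limma adjusted p = 9.99e-22) and 0.369 ± 0.0248 (adjusted p = 1.34e-20). Segments of this kind have close relatives, and which of them the probe detects was not tested.

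Cd3d codes for another CD3 subunit. In T cell rich Eif2s3y-high livers its log10 ratio lay between -0.114 and 0.250 (median 0.0530), and in the poor ones between -0.365 and -0.0129 (median -0.123). The Eif2s3y-low livers held -0.0732 to 0.307 (median 0.117) in the rich and -0.136 to 0.0834 (median -0.0534) in the poor group. The ranges overlapped in both, though 30 of 38 and 27 of 39 rich livers lay above the highest poor liver. Cd3d rose 1.57-fold and 1.44-fold. Cd8a, the alpha chain of the coreceptor of cytotoxic T cells, rose 1.34-fold and 1.45-fold, with 36 of 38 and 38 of 39 rich livers above the poor median. Cd7, a receptor of T and NK cells, rose 1.28-fold and 1.26-fold. Cd96, which binds the poliovirus receptor on other cells, rose 1.44-fold and 1.28-fold.

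The remaining 7 receptor genes did not pass in both groups. Cd3e, the epsilon subunit of the same complex as Cd3d and Cd3g, differed by -0.0234 ± 0.0101 (adjusted p = 0.0839) in Eif2s3y-high and by 0.00271 ± 0.00872 (adjusted p = 0.914) in Eif2s3y-low animals. In the T cell rich livers its ratio lay only between -0.0664 and 0.107 and between -0.0918 and 0.0745. Its values thus did not follow those of Cd3d, measured on the same arrays. Cd247, the zeta chain, differed by 0.0622 ± 0.0140 (adjusted p = 0.000618) and 0.0393 ± 0.0155 (adjusted p = 0.136). Cd8b1, the beta chain of the CD8 coreceptor, differed by -0.00852 ± 0.0137 and 0.0431 ± 0.0116, the latter with an adjusted p of 0.0131. For Cd5 the differences were 0.0300 ± 0.0747 and 0.0294 ± 0.0178, and in the Eif2s3y-high animals values at the deposited limit of 2 stood in both the rich and the poor group. Cd6, Cd28 and Thy1 differed by -0.00984 to 0.0252 on the log10 scale. Over all 11 genes the median fold was 1.07 in Eif2s3y-high and 1.09 in Eif2s3y-low animals, against 0.991 and 0.994 over all genes tested.

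In both Eif2s3y groups 11 of 20 signalling genes below the receptor were higher and none lower, against 3.52% of all genes higher. The list had median folds of 1.23 and 1.20. Sh2d1a codes for SAP, the adaptor of SLAM receptors, and its log10 ratio ran from -0.461 to 0.514 (median 0.188) in T cell rich and from -1.01 to -0.00611 (median -0.253) in T cell poor Eif2s3y-high livers. The Eif2s3y-low livers ran from -0.193 to 0.641 (median 0.223) and from -0.585 to 0.0757 (median -0.150). All but 1 of the rich livers in each Eif2s3y group lay above the poor median. Sh2d2a, a T cell adaptor that binds Lck, rose 1.95-fold and 1.75-fold. Ptprcap, a partner of the phosphatase CD45, rose 1.73-fold and 1.55-fold, and CD45 itself (Ptprc) rose 1.43-fold and 1.37-fold. Ptpn22, a phosphatase that restrains receptor signals, rose 1.54-fold and 1.48-fold. Lcp2, the scaffold SLP-76, rose 1.47-fold and 1.43-fold, and Fyn, a kinase, 1.23-fold and 1.24-fold. The others were Vav1, Txk, Coro1a and Arhgdib, at 1.13-fold to 1.51-fold in Eif2s3y-high and 1.17-fold to 1.31-fold in Eif2s3y-low animals. Zap70, the kinase recruited by the receptor, differed by -0.0338 ± 0.0145 (adjusted p = 0.0819) and -0.0254 ± 0.0132 (adjusted p = 0.298), and Lat, its substrate, by 0.00876 ± 0.0129 and 0.0264 ± 0.0125. Grap2, Prkcq, Rasgrp1, Skap1, Sit1, Dock2 and Laptm5 were likewise not called in both. With the macrophage covariate given last, Ptprc, Vav1, Txk, Coro1a and Arhgdib were no longer called higher in both. Zap70, Lat and the other genes not called were named after their values were seen.

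Of 13 T cell transcription factors, 5 rose in both Eif2s3y groups and none fell in both, against 3.52% of all genes that rose. In the Eif2s3y-high animals 1 was lower, against 10.9% of all genes. Eomes, which drives the effector and memory programme of CD8 T cells and NK cells, had the largest difference. Its log10 ratio lay between -0.164 and 0.470 (median 0.130) in T cell rich and between -0.369 and -0.0325 (median -0.174) in T cell poor Eif2s3y-high livers. For the Eif2s3y-low livers the ranges were -0.139 to 0.507 (median 0.189) and -0.289 to 0.0363 (median -0.128). Of the rich livers, 32 of 38 and 33 of 39 exceeded every poor liver. The fold was 2.12 (adjusted p = 7.06e-15) and 2.01 (adjusted p = 4.17e-15). Tbx21, or T-bet, the factor of type 1 responses, rose 1.41-fold and 1.37-fold. Bcl11b, which fixes T cell identity, rose 1.33-fold and 1.25-fold. Gata3 rose 1.12-fold and 1.16-fold, and Ikzf3, or Aiolos, 1.21-fold and 1.20-fold. Foxp3, the factor of regulatory T cells, chosen after its values were seen, differed by -0.00634 ± 0.0155 and -0.00435 ± 0.0103, with adjusted p of 0.800 and 0.878.

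Genes of killing were higher as well: 9 of 19 cytotoxic and NK cell genes rose in both Eif2s3y groups, against 3.52% of all genes. The list had median folds of 1.15 and 1.17, and 1 of its genes was lower in the Eif2s3y-high animals, against 10.9% of all genes. Fas ligand (Fasl), which triggers death of cells that carry Fas, had log10 ratios from -0.0712 to 0.363 (median 0.102) in T cell rich and from -0.465 to -0.0387 (median -0.151) in T cell poor Eif2s3y-high livers. In the Eif2s3y-low livers they ran from -0.0673 to 0.424 (median 0.163) and from -0.228 to 0.0658 (median -0.0530). Nearly all rich livers, 36 of 38 and 36 of 39, lay above the highest poor liver, and the folds were 1.83 and 1.76. The granzymes Gzma, Gzmb and Gzmk, proteases of killer cell granules, rose 1.43-fold to 1.59-fold in Eif2s3y-high and 1.48-fold to 1.75-fold in Eif2s3y-low animals. Il2rb, the shared receptor chain for IL-2 and IL-15, rose 1.78-fold and 1.51-fold. The lectin receptors Klrk1 and Klrd1 rose 1.15-fold and 1.47-fold in Eif2s3y-high and 1.17-fold and 1.31-fold in Eif2s3y-low animals, and the granule proteoglycan gene Srgn 1.56-fold and 1.32-fold. Of further NK cell receptor genes, Klrb1c did not pass and differed by 0.0855 ± 0.0367 (adjusted p = 0.0819) and 0.0322 ± 0.0399 (adjusted p = 0.741), and Ncr1 by -0.0162 ± 0.0112 and 0.00390 ± 0.00974. Both were picked after their values were seen.

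Among 16 genes of activation and checkpoints, 6 rose in both Eif2s3y groups, against 3.52% of all genes. Ifng, the gene of interferon gamma, had log10 ratios from -0.0431 to 0.423 (median 0.0796) in T cell rich and from -0.231 to 0.0341 (median -0.0568) in T cell poor Eif2s3y-high livers. The Eif2s3y-low livers ran from -0.00726 to 0.350 (median 0.102) and from -0.165 to 0.0482 (median -0.0613). Every rich liver lay above the poor median, and the folds were 1.52 and 1.54 (adjusted p = 5.43e-10 and 2.60e-14). Tnfrsf18, or GITR, a costimulatory receptor, rose 1.79-fold and 1.44-fold. The inhibitory cytokine gene Il10 rose 1.65-fold and 1.51-fold, and the inhibitory receptor gene Havcr2, or TIM-3, 1.48-fold and 1.38-fold. Tnf rose 1.32-fold and 1.47-fold, and Slamf7 1.27-fold and 1.23-fold. The list had median folds of 1.18 and 1.15. Ctla4, Lag3, Icos, Cd40lg, Il2ra, Il7r, Il21, Tnfrsf4, Slamf1 and Slamf6 were not called in both, and were named after their values were seen. With the macrophage covariate given last, Havcr2, Tnf and Slamf7 were no longer called higher in both.

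Of 29 homing receptor and chemokine genes, 14 were higher in both Eif2s3y groups and none lower, against 3.52% of all genes higher. The list had median folds of 1.24 and 1.17, and 1 of its genes was lower in the Eif2s3y-high animals, against 10.9% of all genes. Ccl5, a chemokine gene of effector T and NK cells that was counted above among the 9 cytotoxic genes, had log10 ratios from -0.308 to 0.773 (median 0.234) in T cell rich and from -0.537 to 0.103 (median -0.305) in T cell poor Eif2s3y-high livers. In the Eif2s3y-low livers they ran from -0.00446 to 0.713 (median 0.278) and from -0.373 to 0.0828 (median -0.169). The ranges overlapped, with 26 of 38 and 32 of 39 rich livers above every poor liver. The differences were 0.529 ± 0.0419 (adjusted p = 1.04e-16) and 0.469 ± 0.0362 (adjusted p = 1.22e-17). Ccl8, a monocyte and lymphocyte attractant, rose 2.81-fold and 2.47-fold, and a further probe of this gene differed by 0.427 and 0.375 against 0.449 and 0.393. Ccl4, another chemokine gene, rose 1.95-fold and 2.15-fold, and Ccl3 1.84-fold and 1.75-fold. The receptor gene Cxcr6, which marks T cells resident in liver, had log10 ratios from -0.157 to 0.331 (median 0.0352) in rich and from -0.370 to -0.0305 (median -0.163) in poor Eif2s3y-high livers. Its ranges in the Eif2s3y-low livers were -0.0131 to 0.341 (median 0.136) and -0.257 to 0.0968 (median -0.0520). All 77 rich livers lay above the poor median of their Eif2s3y group, and Cxcr6 rose 1.67-fold and 1.61-fold. Its ligand gene Cxcl16 also rose, by 0.135 ± 0.0193 and 0.0864 ± 0.0200, as did Cxcr3, the receptor of Cxcl9 and Cxcl10, by 0.184 ± 0.0158 and 0.136 ± 0.0144. The integrin gene Itgal, part of LFA-1, rose by 0.190 ± 0.0173 and 0.152 ± 0.0224. Cxcl16, Cxcr3 and Itgal were singled out after their values were seen.

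**Figure D3:**
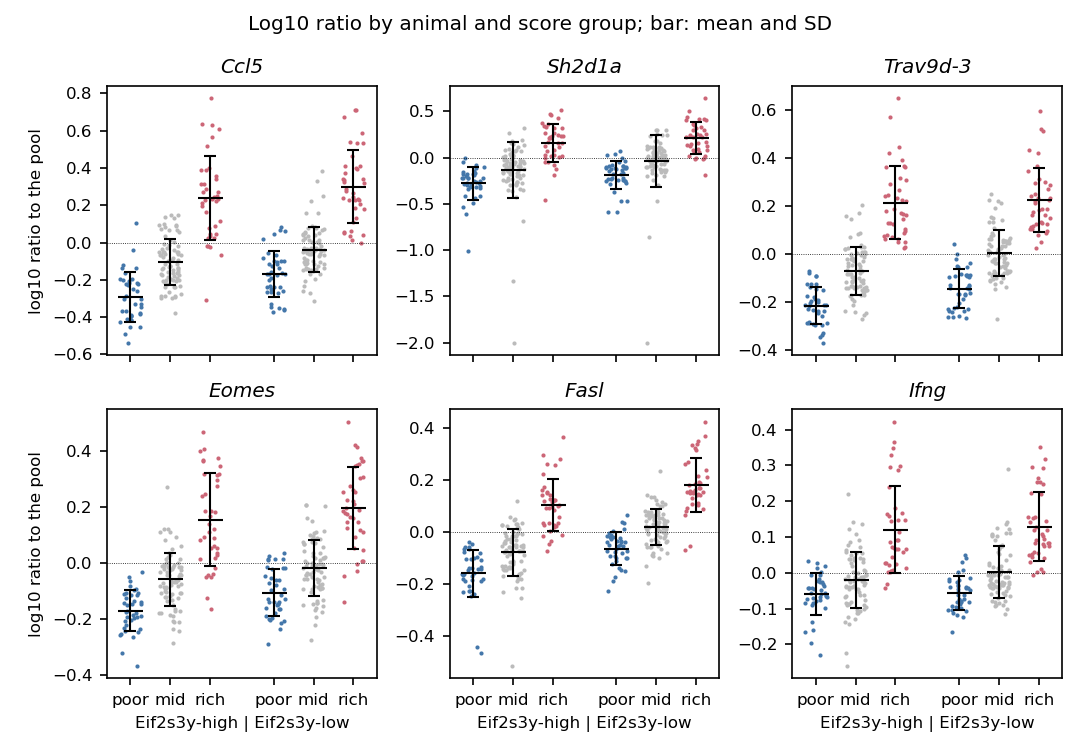
Log10 ratio to the pool (y axis) of Ccl5, Sh2d1a, Trav9d-3, Eomes, Fasl and Ifng in every animal, by T cell poor, middle and T cell rich livers of the Eif2s3y-high and the Eif2s3y-low animals (x axis). Bars show mean and SD. In every panel the median of the rich livers is highest and that of the middle animals lies between, though the middle animals overlap both. Sh2d1a reached the deposited limit of -2 among the middle animals of both Eif2s3y groups.

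Interferon-responsive genes rose in part. Of 29 measured, 12 were higher in both Eif2s3y groups and none lower, against 3.52% of all genes higher. In the Eif2s3y-high animals 1 was lower, against 10.9% of all genes. The median folds of the list were 1.14 and 1.16. Tgtp1, a GTPase of the family that acts on vacuoles of intracellular microbes, had log10 ratios from -0.318 to 0.618 (median 0.0813) in T cell rich and from -0.610 to 0.197 (median -0.325) in T cell poor Eif2s3y-high livers. In the Eif2s3y-low livers they ran from -0.205 to 0.683 (median 0.223) and from -0.463 to 0.491 (median -0.164). The groups overlapped widely at their edges, and only 11 of 38 and 4 of 38 rich livers exceeded every poor liver, while the means differed 2.80-fold and 2.50-fold. A near-identical neighbouring copy exists for Tgtp1, so its signal may include that copy. Cxcl9 rose 2.23-fold and 1.89-fold, Cxcl10 1.64-fold and 1.83-fold, and Gbp2, a guanylate-binding GTPase, 1.73-fold and 1.56-fold. Its relative Gbp2b, outside the list, rose 2.27-fold and 2.08-fold. Ifit2 and Ifit3, genes typical of type I interferon, were among the 12, whereas others did not pass in both. Isg15 differed by 0.00856 ± 0.0140 and 0.0121 ± 0.0127, and Irf7 by 0.0803 ± 0.0230 (adjusted p = 0.00724) and 0.0628 ± 0.0263 (adjusted p = 0.168). Ifit2, Ifit3, Isg15 and Irf7 were picked after their values were seen.

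The promoters of 4 of these genes are shown because they hold the response elements that interferon signalling is known to use. In capitals are matches to the interferon-stimulated response element, GAAA and GAAA with any 2 bases (NN) between them, and to the gamma-activated site, TTCNNNGAA, searched on both strands in the 250 bases before the gene's start (RefSeq, build GRCm38.p6). The sequences run 5′ to 3′ on the strand of the gene.
Tgtp1, chr11:48992247-48992496, - strand: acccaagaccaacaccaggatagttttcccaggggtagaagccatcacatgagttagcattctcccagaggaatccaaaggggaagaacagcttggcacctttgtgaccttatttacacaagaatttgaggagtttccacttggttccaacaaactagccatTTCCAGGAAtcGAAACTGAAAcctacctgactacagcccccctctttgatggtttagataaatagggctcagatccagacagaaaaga
Gbp2b, chr3:142594597-142594846, + strand: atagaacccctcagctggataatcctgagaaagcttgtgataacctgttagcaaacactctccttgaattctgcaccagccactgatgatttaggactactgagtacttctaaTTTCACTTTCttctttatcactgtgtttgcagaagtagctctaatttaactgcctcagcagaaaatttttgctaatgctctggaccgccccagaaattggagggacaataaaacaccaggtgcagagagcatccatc
Gbp2, chr3:142620413-142620662, + strand: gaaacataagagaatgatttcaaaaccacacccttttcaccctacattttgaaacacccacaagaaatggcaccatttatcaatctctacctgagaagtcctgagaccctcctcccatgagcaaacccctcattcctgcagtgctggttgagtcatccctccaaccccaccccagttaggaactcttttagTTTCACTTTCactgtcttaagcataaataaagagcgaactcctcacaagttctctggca
Cxcl10, chr5:92348890-92349139, - strand: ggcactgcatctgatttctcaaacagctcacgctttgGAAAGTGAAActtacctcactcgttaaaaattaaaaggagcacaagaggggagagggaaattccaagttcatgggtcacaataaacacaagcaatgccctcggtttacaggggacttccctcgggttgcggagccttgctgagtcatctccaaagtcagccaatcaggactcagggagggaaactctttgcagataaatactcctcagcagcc
In Tgtp1 the gamma-activated site began at position -88 and the response element at -77 relative to the gene's start, close together without overlap. The response element began at -137 in Gbp2b, -59 in Gbp2 and -213 in Cxcl10. In Gbp2b and Gbp2 it lay on the opposite strand. Of the 12 interferon-responsive genes that rose, 9 promoters held the response element and 5 the gamma-activated site. Among all 8544 tested genes with a promoter sequence, 3.59% held the response element and 7.34% the gamma-activated site. Of the 401 higher genes 305 had a promoter sequence, and 9.84% and 13.4% of these held them. Motifs of lymphocyte factors were searched in the same way: the T-box core AGGTGT was in 10.2% of the 305 and 12.9% of all, and the RUNX core TGTGGT in 19.0% and 13.7%. A match describes letters only and shows no binding.

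Antigen presentation followed. Of 11 MHC class II genes, 8 were higher in both Eif2s3y groups, against 3.52% of all genes, with median folds of 1.31 and 1.27. H2-Aa, the alpha chain of the I-A molecule, had log10 ratios from -0.187 to 0.275 (median 0.0628) in T cell rich and from -0.523 to -0.0155 (median -0.135) in T cell poor Eif2s3y-high livers. The Eif2s3y-low livers ran from -0.165 to 0.322 (median 0.106) and from -0.399 to 0.152 (median -0.0521). Rich livers above the poor median numbered 37 of 38 and 34 of 39, and H2-Aa rose 1.64-fold and 1.57-fold. H2-Eb1, the I-E beta chain, rose 1.80-fold and 1.58-fold, and H2-DMb1, which helps load peptides, 1.55-fold and 1.45-fold. Of 18 class I and processing genes, 1 was lower in the Eif2s3y-high animals, against 10.9% of all genes, and 5 rose in both. Psmb8, Psmb9 and Psmb10 among them code for immunoproteasome subunits. Psmb8 rose 1.25-fold and 1.36-fold and Psmb10 1.24-fold and 1.22-fold. H2-M3, which presents formylated peptides, rose 1.34-fold and 1.25-fold. The class I and processing list had median folds of 1.04 and 1.09. B2m, H2-K1, Tap1, Tap2, Tapbp and Nlrc5 of this list, picked after their values were seen, were not called in both.

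Some markers of other immune cells moved with the T cell score. Of 26 Kupffer cell and macrophage genes, 1 was lower in the Eif2s3y-low animals, where 1.37% of all genes were. In both Eif2s3y groups 10 were higher, against 3.52% of all genes. The Eif2s3y-high animals had 19 higher, these 10 included, where 11.4% of all genes were higher. The mean log10 ratio of this list ran from -0.170 to 0.149 (median -0.0210) in T cell rich and from -0.236 to 0.0242 (median -0.128) in T cell poor Eif2s3y-high livers. In Eif2s3y-low livers it ran from -0.155 to 0.232 (median 0.0377) and from -0.181 to 0.114 (median 0.00196). Ctss, a lysosomal protease of macrophages and other presenting cells, rose 1.50-fold and 1.35-fold, whereas a further probe of Ctss differed by 0.0353 and 0.000689, so its probes disagreed. Cd14, a receptor for bacterial lipopolysaccharide, rose 1.46-fold and 1.31-fold, and Itgax, an integrin of dendritic cells and macrophages, 1.44-fold and 1.34-fold. Clec4f, a marker of Kupffer cells picked after its values were seen, differed by 0.0666 ± 0.0282 (adjusted p = 0.0777) and 0.0517 ± 0.0304 (adjusted p = 0.381). Adgre1, Cd68, Marco, Timd4 and Vsig4 of the same list, picked in the same way, were not called in both. Of 8 dendritic cell genes 5 rose in both, among them Irf8, a factor of myeloid development, at 1.34-fold and 1.24-fold, Clec10a at 1.46-fold and 1.25-fold and Cd83 at 1.30-fold and 1.24-fold. In the Eif2s3y-high animals 1 dendritic cell gene was lower, against 10.9% of all genes.

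Of 14 B cell genes, 4 rose in both Eif2s3y groups, against 3.52% of all genes. The mean log10 ratio of the list had medians of 0.00482 in T cell rich and -0.0325 in T cell poor Eif2s3y-high livers and of 0.0320 and 0.00355 in the Eif2s3y-low livers. Cd72, an inhibitory coreceptor, rose 1.39-fold and 1.24-fold. Pou2af1, a coactivator of immunoglobulin genes, rose 1.30-fold and 1.20-fold. Bank1, a signalling adaptor, rose 1.29-fold and 1.26-fold, with differences of 0.0306 and 0.0507 by a further probe. None of 6 plasma cell genes passed in both. Nor did any of 12 neutrophil, 12 endothelial, 7 bile duct, 7 platelet or 6 red cell genes, although 6 neutrophil genes were higher in the Eif2s3y-high animals, against the 11.4% of all genes. Of 20 stellate cell and matrix genes 2 rose in both, Col5a2, a fibrillar collagen chain, at 1.37-fold and 1.24-fold, and Vim, an intermediate filament of mesenchymal cells and leukocytes, at 1.41-fold and 1.22-fold. In the Eif2s3y-high animals 11 of the 20 genes were higher, against 11.4% of all genes. There 2 of the 20 were lower, which is near the 10.9% of all genes. Values are ratios to the pool and carry no absolute level, so whether a marker is at 0 cannot be read from them. The part of these cell types in the other differences was not tested beyond the macrophage covariate given last.

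**Figure D4:**
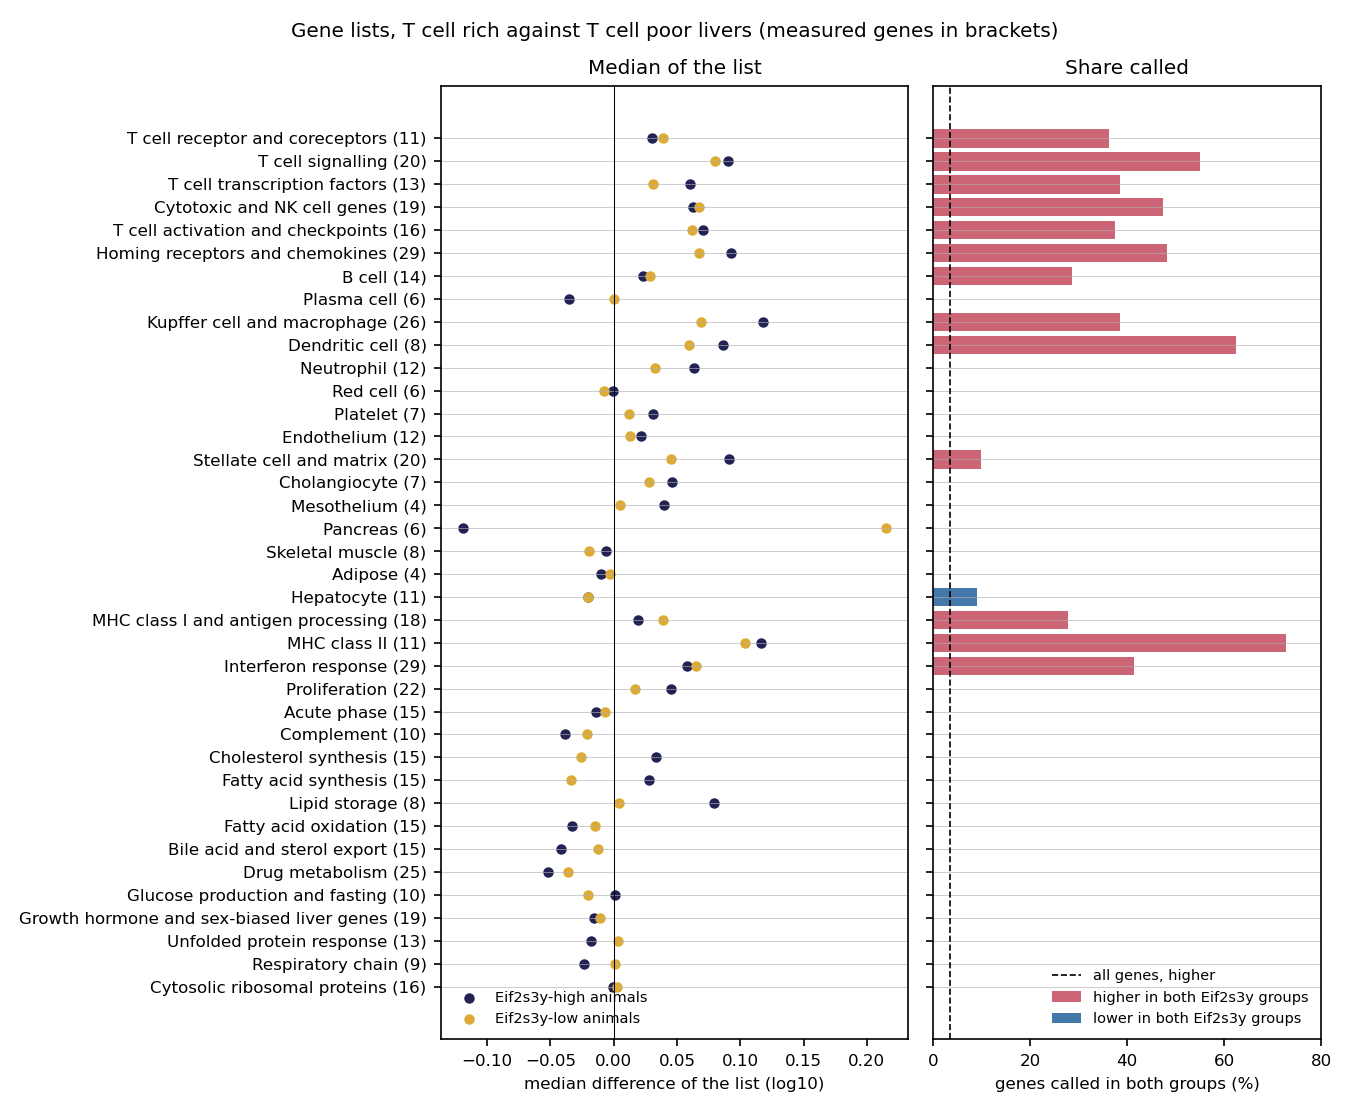
Median difference in log10 ratio of each gene list, T cell rich minus T cell poor livers, for Eif2s3y-high (dark) and Eif2s3y-low (yellow) animals on the left, and the percentage of its measured genes called in both groups on the right. The dashed line is the 3.52% of all genes that were higher in both, and on the right the MHC class II list has the longest bar, with 8 of 11 genes.

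In the liver's own pathways hardly any gene was called in both Eif2s3y groups. Of all genes 3.52% were higher and 0.369% lower in both, so a count of 0 in a list of 10 to 25 genes is close to these shares. Of 11 hepatocyte genes only F9, the gene of coagulation factor IX, fell in both Eif2s3y groups. That is above the 0.369% of all genes, but rests on 1 gene. No gene passed in both among 15 acute phase, 10 complement, 15 cholesterol synthesis, 15 fatty acid synthesis, 15 genes that burn fatty acids, 15 of bile acids and sterol export, 25 drug metabolism, 10 glucose production or 13 unfolded protein response genes. The Eif2s3y-high animals alone were further from the shares of all genes. There 11 of 25 drug metabolism, 6 of 15 bile acid and 8 of 19 growth hormone and sex-biased genes were lower, against 10.9% of all genes. None of these 3 lists had a call in the Eif2s3y-low animals. Of all genes 1.37% were lower there, so 0 lower genes in such lists is near that share. Their median folds were 0.888, 0.909 and 0.965 in Eif2s3y-high and 0.920, 0.972 and 0.975 in Eif2s3y-low animals. Of 22 proliferation genes none passed in both, 9 were higher in the Eif2s3y-high animals, where 11.4% of all genes were higher, and none in the Eif2s3y-low animals, where 4.02% were. Whether these lists differ between the Eif2s3y groups was tested gene by gene only, and the interaction called none of their genes. That test called 18% of simulated interactions of 1 SD, so most differences of that size would be missed.

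The 42 genes lower in both Eif2s3y groups had small differences. Npr2, the receptor of C-type natriuretic peptide, had the largest. Its log10 ratio ran from -0.494 to 0.248 (median -0.0433) in T cell rich and from -0.293 to 0.436 (median 0.0769) in T cell poor Eif2s3y-high livers. In the Eif2s3y-low livers it ran from -0.384 to 0.263 (median -0.0496) and from -0.267 to 0.469 (median 0.0956). The ranges overlapped almost throughout, with 32 of 38 and 31 of 39 rich livers under the poor median. Npr2 fell by 0.109 ± 0.0374 (adjusted p = 0.0269) and by 0.152 ± 0.0372 (adjusted p = 0.00477). Tedc2 was 1.24-fold and 1.25-fold lower, and Bdh2, a ketone body and siderophore dehydrogenase, 1.19-fold and 1.21-fold. Of the 42 genes 41 were in no list, the exception being F9. F9 was 1.12-fold and 1.11-fold lower, Bhmt2, which transfers methyl groups to homocysteine, 1.13-fold and 1.11-fold, the ornithine carrier Slc25a15 1.11-fold and 1.17-fold, and the amino acid carrier Slc38a4 1.10-fold and 1.14-fold. Ceacam1, an adhesion molecule that promotes insulin clearance, was 1.11-fold and 1.14-fold lower. For Vtn, the gene of vitronectin, a further probe differed by 0.00798 and 0.00673 against -0.0448 and -0.0620, so its direction depended on the probe. With each array centred on its median, 4.73% of genes were higher and 0.22% lower in both Eif2s3y groups, the latter 25 genes in place of 42. The Eif2s3y-high animals alone then had 12.5% higher and 9.64% lower, and the Eif2s3y-low animals 5.47% and 1%.

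The 157 middle animals had not entered any of these comparisons. In them the slope of each gene on the score was fitted with limma, with the Eif2s3y group as a covariate. Of the 401 higher genes 398 had a slope above 0, and 128 passed the adjusted threshold, where 156 of all 11384 genes rose with the score (1.37%). Of the 42 lower genes 38 had a slope under 0 and none passed. Over all genes 46.9% had a slope above 0. Trav9d-3 rose by 0.199 ± 0.0206 per unit of score (adjusted p = 8.10e-14), Ptprcap by 0.119 ± 0.0117 (adjusted p = 7.18e-15) and Ccl5 by 0.206 ± 0.0280 (adjusted p = 1.89e-08). Gbp2b, at 0.0747 ± 0.0591 (adjusted p = 0.618), and Cd8a, at 0.0501 ± 0.0166 (adjusted p = 0.107), did not pass in these animals. With each array centred, 64 genes called in both groups had a slope of the same sign past the threshold, in place of 128.

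**Figure D5:**
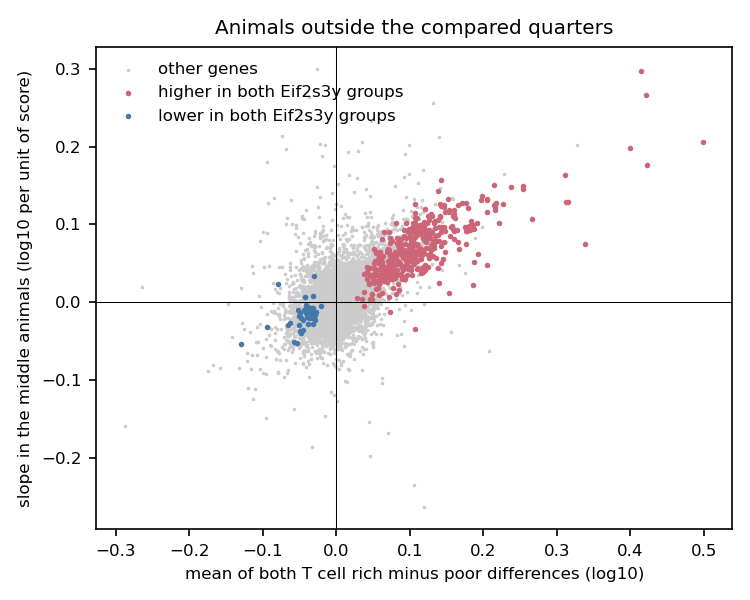
Slope of the log10 ratio on the T cell score in the 157 middle animals (y axis, log10 per unit of score) against the mean of both T cell rich minus T cell poor differences (x axis), for 11384 genes. Of the 401 genes higher in both Eif2s3y groups (red) 398 lie above 0, and of the 42 lower genes (blue) 38 lie below it.

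The comparison was repeated within ranges of the F2 number, the only label available, with rich and poor livers chosen anew in each range, 18 to 20 a group. Among animals with F2 numbers up to 186, 95 genes were higher in both Eif2s3y groups (0.835%), and above 186, 111 genes (0.975%). All 95 and all 111 were among the 401, but the same arrays gave the 401, so this overlap is no replication. The ranges share no animal with each other, and 62 genes (0.545%) were higher in both Eif2s3y groups of both. No gene was lower in both Eif2s3y groups in either range. The 62 included Ccl5, Tgtp1, Ccl8, Sh2d1a, Trav9d-3, Eomes, Fasl, Cxcr6, Ifng, Cd3d, Cd8a and H2-Aa, but not Gbp2b, Ccl4 or Cxcl10. They held 7 of the 20 T cell signalling and 6 of the 19 cytotoxic genes. Of the 14 B cell and 26 macrophage genes they held none, which is close to the 0.545% of all genes. In Eif2s3y-high animals alone, 0.975% of genes were higher and 0.0176% lower up to 186, against 10.8% and 9.65% above it. In Eif2s3y-low animals 1.81% were higher and 0.105% lower up to 186, against 1.06% and 0.0176% above it. Whether the ranges differ was not tested.

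With the macrophage score of Ctss and Lgmn as a covariate, 66 genes remained higher in both Eif2s3y groups (0.58%), all among the 401, and no gene was lower by limma's adjusted p. In Eif2s3y-high animals 0.896% of genes were higher and 0.0966% lower with this covariate, and in Eif2s3y-low animals 1.04% and 0.202%. These 66 held all 4 receptor genes (Cd3d, Cd7, Cd8a and Cd96), 6 of the 11 signalling genes, 6 of the 9 cytotoxic genes and 4 of the 8 MHC class II genes. Of the 14 B cell and 26 macrophage genes they held none, which is close to the 0.58% of all genes. Of the 12 interferon-responsive genes that rose they held 5. Ctss and Lgmn, which make up the covariate, are in the macrophage list, and Ctss is 1 of the 8 class II genes. The loss of macrophage genes is thus in part built in and does not show which genes belong to T cells. Since Ctss is itself a gene of antigen presentation and both scores come from the same arrays, the covariate takes out any difference that T cells and macrophages share. The covariate used 1 probe of Ctss, and a further probe of that gene disagreed.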

How the data were processed

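The authors deposited 1 log10 ratio per probe and array, limited to -2 and 2; per the labels, Cy3 held the animal and Cy5 the pool. How the ratios were normalized is not given in the sources used here. Nor is the direction of the ratio, which was read from the values as animal over pool: the slope of gene means on variances was -1.04, where sample over pool requires -1.15 and pool over sample 1.15. Of 48205 array pairs 127 had r under -0.3 (lowest -0.432), and this direction was kept. Ratios were used without further normalization.

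Of 23388 probes 13645 named 1 gene by the platform table, 48 several and 9695 none. Symbols were updated through RefSeq (GRCm38.p6): 12653 by Entrez ID, 4 by accession, 214 by symbol and 93 by older symbol, and 681 were kept. Of the probes on at least 95% of arrays, the one with fewest missing values stood for a gene. limma 3.58.1 (R 4.3.3; lmFit, eBayes) tested T cell rich against poor livers in each Eif2s3y group, the interaction, and the slope in middle animals, with Benjamini-Hochberg adjustment. A gene was called in both when both adjusted p were under 0.05 with 1 sign. In simulated data 70% of 50 genes changed by 1 SD were called in both groups, 0% of those changed by 0.5 SD and 0% of unchanged genes.

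Genes named are the 25 higher and 15 lower with the largest smaller difference, the called genes of the T cell lists, all receptor genes, up to 3 called genes of every other list, and the interaction call; others are marked as chosen after their values were seen. The members, the 38 lists (515 of 720 genes tested) and the rules were chosen with earlier results of these data known. The score and the tested genes come from the same arrays. The F2 number of 1 animal differs between its labels, and that of its title was kept.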

Additional observations from a re-analysis of the deposited data

Results flagged for a closer look

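Lep, the gene of the adipocyte hormone leptin, was the 1 gene whose difference between T cell rich and T cell poor livers itself differed between the Eif2s3y groups (limma interaction, adjusted p = 0.0102). In Eif2s3y-high animals its log10 ratio ran from -0.148 to 0.170 (median -0.00994) in T cell rich and from -0.0781 to 0.353 (median 0.126) in T cell poor livers. In Eif2s3y-low animals it ran from -0.158 to 0.129 (median -0.0266) and from -0.147 to 0.111 (median -0.0595). The ranges overlapped in both, and 2 and 1 T cell rich arrays had no value. Lep differed by -0.104 ± 0.0213 (adjusted p = 0.000167) in the former and by 0.0223 ± 0.0126 (adjusted p = 0.355) in the latter. With the macrophage score as a covariate the difference in Eif2s3y-high animals was -0.0139 (adjusted p = 0.864), and with F2 numbers up to the median -0.0653 (adjusted p = 0.362). The cause was not tested.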

How the results depend on the processing

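Of 180 differences of 90 named genes, 2562 of the values under 16 alternatives kept direction and side of the threshold, 297 lost the call, 5 gained it and 16 turned sign. The counts below moved by over 1.5 times from 401 genes higher and 42 lower in both Eif2s3y groups, 2536 calls in Eif2s3y-high and 614 in Eif2s3y-low animals, 1 interaction and 128 slopes. Centring each array gave 25 lower genes, 20 interactions and 64 slopes. Comparing 51 and 52 animals at each end of the score gave 100 lower genes and 0 interactions, and comparing 15 gave 1012 Eif2s3y-high calls, 1019 Eif2s3y-low calls and 0 interactions. Cd2 alone gave 602 higher, 159 lower, 1129 Eif2s3y-low calls, 54 interactions and 68 slopes, and Cd3g alone 1613 Eif2s3y-high calls, 0 interactions and 75 slopes. The slope over all animals gave 675 higher, 188 lower and 1298 Eif2s3y-low calls. Leaving out the 10 arrays of largest spread gave 161 interactions. F2 numbers up to the median gave 95 higher, 0 lower, 113 and 218 calls, 0 interactions and 7 slopes, and those above it 111 higher, 0 lower, 123 Eif2s3y-low calls, 8 interactions and 30 slopes. Without 12 arrays of strong pancreas or muscle signal 26 lower genes and 79 slopes were called. The macrophage covariate gave 66 higher, 0 lower, 113 and 141 calls, 0 interactions and 21 slopes. For lower counts with fewer animals the construction itself removes samples; for the others the cause was not tested. The zero counts are from limma by adjusted p; as reported, 1588 interactions and 382 lower genes had an unadjusted p under 0.05.

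The reversed values, none of them called as reported except Mia2, Cd83 and Itgax, were these log10 differences. In Eif2s3y-low animals Mia2 was 0.00443 by its most variable probe. Cd3e there was -0.000490 with 52 animals at each end, -0.00728 with 15, -0.00342 with Cd2 alone and -0.00131 above the median F2 number. Cd6 there was 0.000847 with Cd3g alone, 0.000347 up to the median F2 number and 4.12e-05 without pancreas or muscle signal. In Eif2s3y-high animals Cd6 was 0.00295 up to the median F2 number, and Cd8b1 was 0.0141 with 15 animals and 0.00217 as a slope. With the macrophage covariate the Eif2s3y-high values were -0.0391 for Cd5, 0.0182 for Cd6, -0.0209 for Itgax and -0.0127 for Cd83, and the Eif2s3y-low value of Cd83 was -6.65e-05. No paired analysis was possible because each animal has a number of its own. In simulated data changes of 0.5 SD were not called in both groups, so smaller differences may be missed.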

Other observations

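Gene families that the report does not cover were counted after their values were seen. Of all genes tested, 3.52% were higher in both Eif2s3y groups. All 4 guanylate-binding protein genes tested were higher in T cell rich livers of both Eif2s3y groups by limma, with Gbp3 1.39-fold and 1.42-fold and Gbp8 1.61-fold and 1.54-fold higher. Of the Fc receptor genes for immunoglobulin G, Fcgr4, Fcgr1 and Fcgr3 rose, Fcgr4 1.57-fold and 1.51-fold, Fcgr1 1.49-fold and 1.29-fold and Fcgr3 1.37-fold and 1.16-fold. The neonatal receptor gene Fcgrt differed by -0.000740 and 0.000582, with adjusted p of 0.972 and 0.990. Of 8 Gimap genes, GTPases of lymphocyte survival, 4 rose: Gimap5 1.47-fold and 1.45-fold, Gimap1 1.33-fold and 1.20-fold, Gimap7 1.28-fold and 1.27-fold and Gimap6 1.26-fold and 1.23-fold. Gimap3, Gimap4, Gimap8 and Gimap9 differed by -0.0281 to 0.0357 in Eif2s3y-high and by -0.00878 to 0.0214 in Eif2s3y-low animals on the log10 scale.

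Of 11 Toll-like receptor genes 4 rose in both Eif2s3y groups, Tlr1, Tlr2, Tlr4 and Tlr7, at 1.15-fold to 1.31-fold and 1.17-fold to 1.33-fold. Of 9 genes whose names begin with Casp, Casp8ap2 included, 3 did, where 3.52% of all genes did. These were Casp1, Casp2 and Casp4, and the median folds of the 9 were 0.994 and 1.02. Casp4 rose 1.70-fold and 1.42-fold and Casp1 1.35-fold and 1.34-fold, whereas Casp12 was not called in both. Pycard, the adaptor of inflammasomes, rose 1.43-fold and 1.41-fold. Ripk3, a kinase of necroptosis, rose 1.35-fold and 1.34-fold. The death receptor protease gene Casp8 differed by -0.0315 and -0.00923, with adjusted p of 0.112 and 0.793. Cd274, which codes for the checkpoint ligand PD-L1, rose 1.52-fold and 1.48-fold, and the costimulatory ligand gene Cd86 1.35-fold and 1.40-fold.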
